A study of Homo sapiens with 20 samples.

Results

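The S100 genes code for small calcium-binding proteins, and 10 of them were followed across all 7 groups of the series: S100P, S100A2, S100A4, S100A6, S100A8, S100A9, S100A10, S100A11, S100A13 and S100A14. They were chosen by name. Where a gene had several transcript clusters (the array's probe sets for a gene), the brightest was to be chosen by its mean level over all arrays, but each of these genes had a single cluster, so that measured value selected nothing. All 10 of 10 were measured, among 18417 genes tested. The list was drawn up with earlier results of these data known, so the values below describe these genes and are not independent evidence for them.

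The cells were LNCaP, an established human prostate cancer line that responds to androgens, and gene expression was measured on 20 Affymetrix gene arrays. Of the 7 groups, 5 were arrested with drugs. The early G1 group (n = 3) was held for 24 h with 0.5 µM PD-0332991, which blocks CDK4 and CDK6. The late G1 group (n = 3) was held for 24 h with 5 µg/mL roscovitine, a blocker of CDK2 and related kinases. For early S (n = 2) aphidicolin, which stops replicative DNA polymerases, was given at 2 µg/mL for 24 h. For late S (n = 3) the drug was hydroxyurea, an inhibitor of ribonucleotide reductase, at 1 mM for 24 h. For G2/M (n = 3) aphidicolin was given for 15 h and washed out, and nocodazole, a microtubule poison, followed at 50 ng/mL for 9 h. All 14 arrested samples had hormone-proficient medium, and for the final 3 h also dihydrotestosterone (DHT), a natural androgen, at 10 nM. Cells labelled CDT + DHT (n = 3) were kept for 72 h in the medium the labels call CDT and then had DHT at 10 nM for 3 h, and the control, CDT (n = 3), had ethanol for 3 h after the same 72 h. The cell cycle phases are those of the labels. An arrest and CDT differ in drug, medium and hormone together, and an arrest and CDT + DHT in drug and medium, so these cannot be told apart.

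S100 proteins are small proteins with paired EF-hand loops, which mostly bind calcium, change shape and then grip partner proteins. Many work inside the cell on the cytoskeleton, on annexins or on enzymes, and some are also released and act on receptors such as RAGE, the product of AGER. Most of the genes lie side by side on human chromosome 1, and S100P lies apart on chromosome 4. S100P, first found in placenta, is expressed in many carcinomas. S100A2 is a largely nuclear protein of epithelial cells, S100A4 binds non-muscle myosin and is known from metastatic cells, and S100A6 (calcyclin) was found as a gene of proliferating cells. S100A8 and S100A9 pair up as calprotectin in neutrophils and monocytes. S100A10 has lost calcium binding and joins annexin A2 at membranes, S100A11 binds annexin A1, and S100A13 takes part in the release of FGF1.

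The stretches just upstream of S100P, S100A2 and S100A10 are printed because these 3 genes are the members with a called difference. Each is the 250 bases before a RefSeq start of GRCh38.p14, on the gene's own strand, 5′ to 3′. They are S100P at chr4:6693628-6693877 (plus strand), S100A2 at chr1:153565845-153566094 (minus strand, the more upstream of 2 starts) and S100A10 at chr1:151993860-151994109 (minus strand). Capitals mark TATAAA in S100P, TGANTCA (the AP-1 letters) in S100A2 and GGGCGG (the GC box) in S100A10.
S100P: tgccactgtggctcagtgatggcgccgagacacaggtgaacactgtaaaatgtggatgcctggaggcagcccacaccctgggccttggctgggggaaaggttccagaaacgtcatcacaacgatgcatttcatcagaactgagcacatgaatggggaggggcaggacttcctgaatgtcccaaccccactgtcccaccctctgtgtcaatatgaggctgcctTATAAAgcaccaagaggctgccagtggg
S100A2: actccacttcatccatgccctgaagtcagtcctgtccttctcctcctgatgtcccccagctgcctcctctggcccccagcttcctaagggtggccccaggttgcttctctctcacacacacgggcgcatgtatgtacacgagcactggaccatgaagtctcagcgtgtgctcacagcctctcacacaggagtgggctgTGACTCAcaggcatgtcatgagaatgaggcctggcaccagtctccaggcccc
S100A10: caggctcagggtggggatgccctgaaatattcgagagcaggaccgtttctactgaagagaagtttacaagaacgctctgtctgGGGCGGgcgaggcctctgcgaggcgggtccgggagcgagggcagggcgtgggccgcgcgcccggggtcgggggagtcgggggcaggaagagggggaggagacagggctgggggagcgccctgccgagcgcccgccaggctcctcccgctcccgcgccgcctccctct

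These stretches differ in kind. The S100P stretch has TATAAA with its first base 28 bases before the start, 4 CpG pairs and 55.6% G and C, whereas the GC-rich S100A10 stretch has no TATAAA, 24 CpG pairs and 71.2% G and C. The S100A2 stretch has TGANTCA with its first base 52 bases before the start, 4 CpG pairs and 59.2% G and C. Over all 15 listed starts of the 10 members, TATAAA was found in 6 windows, GGGCGG in 5 and TGANTCA in 1, searched on both strands. The window with TGANTCA is the S100A2 stretch above, and the other S100A2 start had no match. The 6 windows with TATAAA include 2 overlapping windows of S100A8 that hold the same TATAAA. Among all 35116 listed windows of that length, TATAAA was in 10.7%, GGGCGG in 42.6% and TGANTCA in 6.57%. The full androgen receptor palindrome was in 0 of the 15 windows (0.00285% of all windows). Its single arm, AGAACA, was in 0 as well (12.4%). A match is a description, and no match says only that the letters are not in the window.

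The arrays set limits that touch these genes. Values are linear intensities with an array median of 5.44 to 9.08, and most S100 genes were dim. S100P, S100A11 and S100A13 lay above the 75th percentile of mean signal over genes, S100A2 and S100A10 near the middle, and S100A4, S100A6, S100A8, S100A9 and S100A14 below the 40th. Signal depends on the probes, so these ranks are no ranking of expression. Of the 200 array values of the members, 8 were below an intensity of 0.1. A single axis held 43.8% of the variance between arrays of the same group, and late S replicates 1 and 2, early G1 replicate 2 and CDT replicate 1 lay farthest out on it. Among markers, 5 of 8 listed prostate luminal genes were measured and averaged 5.27 to 7.48 per array on the log2(intensity + 1) scale. The averages were 1.42 to 3.16 for 5 leukocyte genes, 2.41 to 4.41 for 2 basal genes and 2.74 to 4.41 for 4 stromal genes. KLK2, an androgen-induced kallikrein gene, lay at 201 to 624 on the 17 arrays with DHT, against 49.5 to 56.6 on the 3 CDT arrays.

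S100P was high in the 3 groups arrested in S phase or G2/M and low in the others. Its intensity was 198 and 91.4 on the early S arrays. In late S it was 84.4, 110.2 and 208, and in G2/M 74.7, 104 and 102. These 8 arrays all lay above the other 12, the highest of which, a late G1 array, reached 39.7. In late G1 the values were 16.5, 26.8 and 39.7, and in early G1 10.7, 6.04 and 27.3. In CDT + DHT they were 11.5, 19.3 and 15.95, and in CDT 4.57, 11.03 and 0.0512. The CDT arrays thus overlapped early G1 alone, and CDT replicate 3 carried almost no signal.

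**Figure D1:**
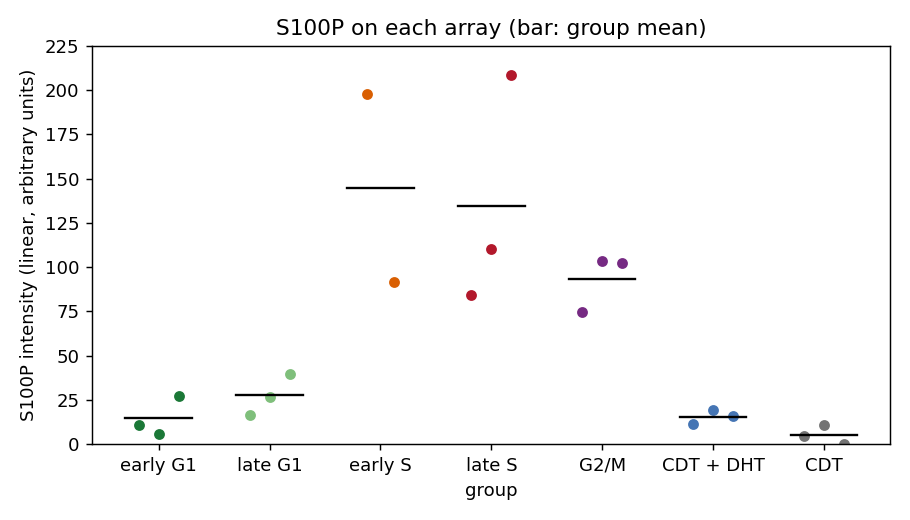
Linear intensity of S100P (y axis, arbitrary units) on each of the 20 arrays, by group (x axis), with points for arrays and bars for group means. The early S, late S and G2/M arrays lie between 74.7 and 208, and all other arrays at or below 39.7.

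The level of S100P differed among the 7 groups (moderated F test of limma, adjusted p = 0.009997), a test passed by 0.418% of all genes and by 1 of the 10 members, S100P itself. At an unadjusted p below 0.05 it was 6 members, against 9.45% of all genes. S100P kept passing in each of 10 other settings of the fit (adjusted p = 7.7e-05 to 0.0403) and without any single array (0.00476 to 0.0292). Unless another setting is named, p-values below come from 1 limma fit over the 20 arrays, with adjustment after Benjamini and Hochberg across the 18417 genes, and differences are on the log2(intensity + 1) scale, ± SE. S100P averaged 145 ± 75.3 in early S (SD, n = 2), 134 ± 65.5 in the hydroxyurea arrest (n = 3) and 93.6 ± 16.4 in G2/M (n = 3), against 5.21 ± 5.52 in CDT (n = 3). The rise against CDT was 5.04 ± 0.81 for early S (32.8-fold, adjusted p = 0.0205), 4.93 ± 0.73 for late S (30.5-fold, 0.0102) and 4.50 ± 0.73 for G2/M (22.7-fold, 0.0173). These comparisons called 0.0326% of all genes for early S, 0.0977% for late S and 0.109% for G2/M, where S100P ranked 5, 3 and 6 by p. In late G1 its difference from CDT was 2.71 ± 0.73 (adjusted p = 0.183), with arrays that did not overlap (as in 15.6% of all genes), and in early G1 1.68 ± 0.73 (0.955).

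The size of these folds depends on the pseudocount. With a pseudocount of 16 in place of 1 the differences were 2.87 for early S, 2.77 for late S and 2.39 for G2/M, and all 3 passed (adjusted p = 0.000883, 0.000193 and 0.00176). Over the 11 settings tried other than leaving out single arrays, the adjusted p ran from 0.000764 to 0.464 for early S, from 9.3e-05 to 0.455 for late S and from 0.000620 to 0.140 for G2/M. All 3 calls were lost when the fit held the compared groups alone. The early S and G2/M calls were also lost without the 4 arrays farthest out. That setting leaves late S replicate 3 alone in its group, so it cannot show whether the late S call holds. Without CDT replicate 3 the differences were 4.05, 3.94 and 3.52 and none passed (adjusted p = 0.0713, 0.0639 and 0.0779). Without CDT replicate 1 the early S and G2/M calls were lost (0.0717 and 0.0582). The early S call was also lost without early S replicate 1 (0.587) or 2 (0.127), the late S call without late S replicate 3 (0.123), and the G2/M call without G2/M replicate 1 (0.0650), 2 (0.0755) or 3 (0.120).

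Set against CDT + DHT, which had the hormone, no difference in S100P passed. The difference was 3.06 ± 0.81 for early S (8.35-fold, adjusted p = 0.420), 2.95 ± 0.73 for late S (7.74-fold, 0.151) and 2.53 ± 0.73 for G2/M (5.76-fold, 0.125), and its arrays did not overlap those of CDT + DHT in any of the 3, as was so for 28.5%, 15.1% and 26.9% of all genes. S100P averaged 27.7 ± 11.6 in late G1 and 14.7 ± 11.2 in early G1, against 15.6 ± 3.93 in CDT + DHT (SD, n = 3 each). The corresponding differences were 0.74 ± 0.73 (adjusted p = 0.708) and -0.29 ± 0.73 (0.919), with 95% intervals of -0.78 to 2.26 and -1.81 to 1.23. With a pseudocount of 16 the differences passed in early S (2.27, adjusted p = 0.0154, and 0.0154 to 0.628 over the settings), late S (2.17, 0.00306, and 0.00102 to 0.453) and G2/M (1.79, 0.0107, and 0.0107 to 0.162).

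**Figure D2:**
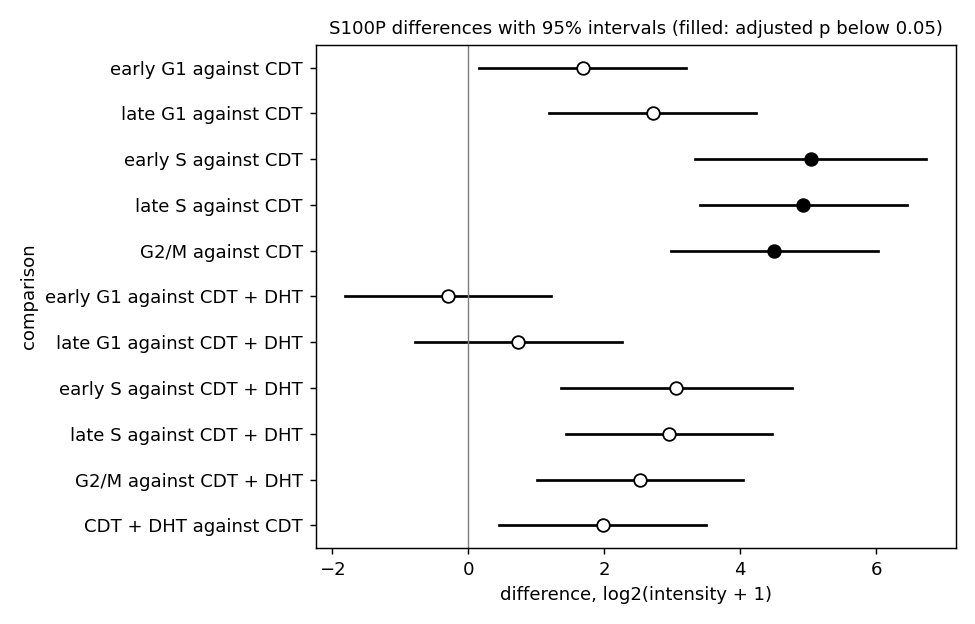
Differences in S100P (x axis, log2 of intensity + 1) for each comparison (y axis), with 95% intervals from the limma fit as lines and filled points where the adjusted p was below 0.05. The early S, late S and G2/M points against CDT are filled, at 5.04, 4.93 and 4.50, and those against CDT + DHT lie at 3.06, 2.95 and 2.53.

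With DHT alone, S100P differed by 1.98 ± 0.73 (adjusted p = 0.696), at 15.6 ± 3.93 in CDT + DHT against 5.21 ± 5.52 in CDT. All 3 CDT + DHT arrays lay above the 3 CDT arrays, and 13.8% of all genes had no overlap there. With a pseudocount of 16 the S100P difference was 0.60. Among the 5 arrests alone the F test gave an adjusted p of 0.119 for S100P (0.00116 to 0.283 over the other settings), and it passed in 4 of 10 of them, the pseudocount of 16 among these. Of all genes, 0.255% passed that F test, and 0 of the 10 members did (4 at an unadjusted p below 0.05, against 6.89%). S100P in early G1 differed from the mean of the other arrests by -2.61 ± 0.58 (adjusted p = 0.622), and with a pseudocount of 16 it fell by 1.76 (0.0109, and 0.0109 to 1.00 over the settings). Among the members' 60 steps between groups next to each other in mean level, 0 passed the threshold. In the order of mean levels of S100P, early S, late S, G2/M, late G1, CDT + DHT, early G1 and CDT, no neighbours differed past the threshold. The widest step between neighbours, G2/M over late G1, was 1.79 ± 0.73 (adjusted p = 0.424), and early S over late S was 0.11 ± 0.81 (0.976).

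Of 9208 other genes at or above the median brightness, the 5 whose levels followed S100P most closely over the 20 arrays were CDKN1A, TP53I3, FAXDC2, DDB2 and BLVRB. CDKN1A encodes the kinase inhibitor p21, TP53I3 a quinone oxidoreductase, DDB2 a protein that recognises ultraviolet damage in DNA, and BLVRB a biliverdin reductase. Pearson's r with S100P was 0.918 for CDKN1A, 0.901 for TP53I3, 0.858 for FAXDC2, 0.830 for DDB2 and 0.791 for BLVRB. These are descriptions over arrays that share groups and were chosen as the closest. After each group's mean was taken off, r was 0.760 for CDKN1A, 0.505 for TP53I3, 0.750 for FAXDC2, 0.412 for DDB2 and 0.640 for BLVRB. CDKN1A averaged 477 ± 149 in late S, against 37.6 ± 25.4 in CDT, TP53I3 89.7 ± 48.0 against 5.98 ± 4.85, and DDB2 159.6 ± 26.7 against 26.6 ± 2.69 (linear intensity, SD, n = 3 each). These levels are given without a test, since the genes were picked for following S100P on the same arrays.

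**Figure D3:**
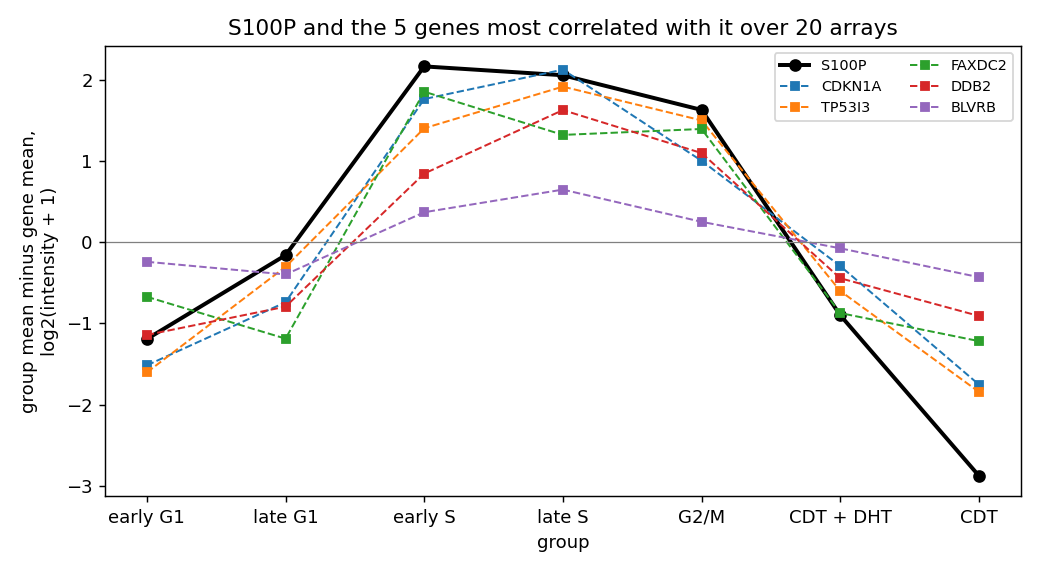
Group means of S100P and of the 5 genes most correlated with it over the 20 arrays, each minus the gene's own mean (y axis, log2 of intensity + 1), by group (x axis). S100P (black) spans the widest range, 7.08 in early S and 2.05 in CDT before the gene's mean is taken off.

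S100A2, the mainly nuclear member, had its highest means in G2/M and early S. Its intensity was 19.7, 33.2 and 19.1 in G2/M and 24.5 and 19.5 in early S. In late S it was 4.69, 13.004 and 25.8, a wide spread. In late G1 it was 2.76, 4.37 and 1.87, and in early G1 4.65, 4.0002 and 9.19. CDT + DHT gave 13.5, 19.6 and 7.38, and CDT 4.405, 5.70 and 4.47. The late G1 arrays thus all lay below those of early S, late S, G2/M, CDT + DHT and CDT, and the 3 CDT arrays lay within the range of early G1.

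S100A2 was lower in late G1 than the mean of the other arrests, with a difference of -1.93 ± 0.45 (adjusted p = 0.0498), in a comparison where 0.706% of all genes were called. The late G1 and early G1 arrays overlapped. The call did not hold in 17 of 20 cases of leaving out 1 array (adjusted p up to 0.254, without late G1 replicate 3) or with a pseudocount of 16 (-0.72, adjusted p = 0.0767, and 0.00719 to 0.115 over the settings). S100A2 was higher in G2/M than in CDT by 2.06 ± 0.56 (adjusted p = 0.246) and in early S by 1.97 ± 0.62 (0.648), with no overlap of arrays in either, as in 14.2% and 22% of all genes, and neither passed. In late G1 against CDT + DHT its difference was -1.81 ± 0.56 (adjusted p = 0.149). Over the 20 arrays S100A2 followed S100A11 (r = 0.803, and 0.689 with group means taken off) and S100P (0.626 and 0.426), as a description.

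S100A10, the annexin A2 partner, was highest on average in the 2 groups kept in CDT medium and lowest in late G1. Its intensity was 0.0312, 2.21 and 5.15 in late G1, against 47.5, 45.9 and 12.9 in CDT + DHT and 12.7, 27.6 and 22.6 in CDT. The late G1 arrays all lay below both of these groups. Arrays did not overlap in 24.8% of all genes against CDT + DHT and in 15.6% against CDT. In early G1 S100A10 was 5.01, 10.2 and 22.5, and in early S 4.18 and 11.96. For late S it was 4.16, 12.4 and 9.10, and for G2/M 2.09, 12.6 and 9.65.

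S100A10 fell in late G1 against CDT + DHT by 3.54 ± 0.76 (11.6-fold lower, adjusted p = 0.0446), where 0.516% of all genes were called. With a pseudocount of 16 it fell by 1.40 (0.0182, and 0.00225 to 0.129 over the settings). The call was lost without any 1 of the late G1 arrays (adjusted p = 0.147, 0.0823 and 0.0522 for replicates 1, 2 and 3), without CDT + DHT replicate 1 (0.195) or 2 (0.178), and in 7 of the 14 cases of leaving out an array of another group. Against CDT the late G1 difference was -2.94 ± 0.76 (adjusted p = 0.157). The other arrests differed from CDT + DHT by -1.95 ± 0.85 in early S (adjusted p = 0.605), -1.84 ± 0.76 in late S (0.427), -2.05 ± 0.76 in G2/M (0.218) and -1.44 ± 0.76 in early G1 (0.647), and none passed. With DHT alone the difference was 0.59 ± 0.76 (adjusted p = 0.915).

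**Figure D4:**
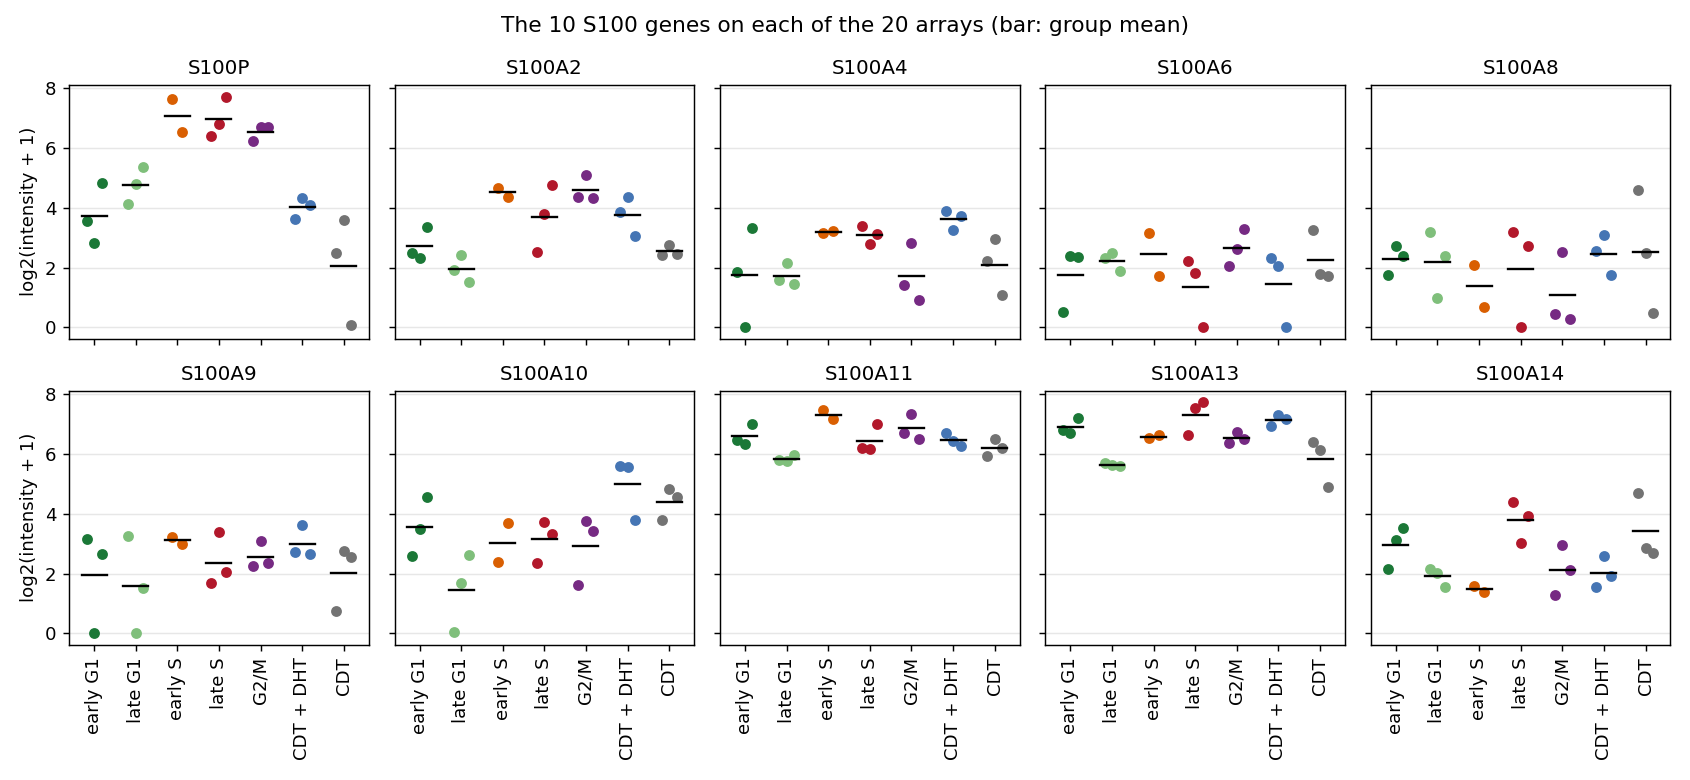
Level of each of the 10 S100 genes (y axis, log2 of intensity + 1) on each array by group (x axis), with points for arrays and bars for group means. S100P is highest in early S, late S and G2/M (group means 7.08, 6.97 and 6.55), S100A10 is lowest in late G1 (1.45), and S100A11 and S100A13 keep group means of at least 5.65.

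S100A11 and S100A13 had signal on every array and their lowest group means in late G1. From CDT, late G1 differed by -0.37 ± 0.43 for S100A11 (adjusted p = 0.864) and -0.17 ± 0.47 for S100A13 (0.951). The arrays overlapped in both, so late G1 was not set apart from CDT. S100A13 lay at 50.5, 48.9 and 48.0 in late G1, below all 11 arrays of the other arrests, which held 81.8 to 210.3. It lay at 121, 158 and 144 in CDT + DHT and at 83.7, 69.4 and 29.0 in CDT. Late G1 differed from the other arrests by -1.18 ± 0.37 (adjusted p = 0.193) and from CDT + DHT by -1.50 ± 0.47 (0.154), and with a pseudocount of 16 these were -0.99 (0.0358, and 0.0358 to 0.261 over the settings) and -1.26 (0.0184, and 0.0184 to 0.204). With DHT alone S100A13 was higher by 1.33 ± 0.47 (adjusted p = 0.696), with no overlap, as in 13.8% of all genes.

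S100A11 lay at 54.4, 53.8 and 61.2 in late G1 and at 70.3 to 177 on the other arrested arrays, with 76.2 to 103 in CDT + DHT and 59.7 to 90.3 in CDT. Its late G1 difference from the other arrests was -0.96 ± 0.35 (adjusted p = 0.287), and its early S difference from CDT 1.11 ± 0.49 (0.846). Neither passed. S100A11 and S100A13 were the 2 members whose late G1 arrays did not overlap those of the other arrests, as was true of 1.9% of all genes.

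S100A14 and S100A4 were dim. S100A14, an epithelial member, was 19.8, 7.17 and 14.2 in late S, against 1.94 to 5.03 in CDT + DHT and 5.50 to 24.8 in CDT. Its values were 1.98 and 1.60 in early S, 1.45 to 6.78 in G2/M, 1.95 to 3.46 in late G1 and 3.49 to 10.5 in early G1. The late S arrays lay above every CDT + DHT array, where 15.1% of all genes did not overlap. The S100A14 difference was 1.75 ± 0.61 (adjusted p = 0.357), and that from the other arrests 1.67 ± 0.48 (0.658). S100A4 was highest in CDT + DHT, at 13.8, 8.56 and 12.1, against 3.63, 6.83 and 1.14 in CDT, a difference of 1.53 ± 0.70 (adjusted p = 0.705). In G2/M (0.890 to 6.05) and late G1 (1.71 to 3.46) all arrays lay below those of CDT + DHT. Arrays did not overlap there in 26.9% and 24.8% of all genes. The S100A4 differences were -1.91 ± 0.70 (adjusted p = 0.212) and -1.90 ± 0.70 (0.221). Early G1 was spread from 0.0146 to 9.09. The S phase groups held 7.88 and 8.41 in early S and 5.96 to 9.41 in late S, and no difference in S100A4 or S100A14 passed.

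S100A6, S100A8 and S100A9 lay near the bottom of the signal range and passed no test. S100A6 ran from 0.0114 to 8.73 over the 20 arrays (median 3.40), S100A8 from 0.0129 to 23.3 (4.20) and S100A9 from 0.00478 to 11.2 (5.30). Their F tests over the 7 groups gave adjusted p = 0.828 for S100A6, 0.895 for S100A8 and 0.843 for S100A9. Leukocyte markers, from the cells that use S100A8 and S100A9, were mostly dim as well: 4 of the 5 measured lay below the median gene in mean level. The exception was CD14, which averaged 4.55 to 11.1 in the other 6 groups and 20.98 ± 10.3 in CDT (SD, n = 3), and the part of these markers in S100A8 and S100A9 was not tested. The deviations of S100A9 from its group means followed the axis of the arrays described above (r = 0.738 over 20 arrays), and those of S100P much less so (0.118). With that axis as a covariate the S100P differences from CDT in early S, late S and G2/M passed as before. The axis was built from deviations from group means, so it could not change these differences, only the spread they were tested against.

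Counted over the family, 5 of 160 member-by-comparison tests passed, 3 higher and 2 lower, against 0.134% of all gene-by-comparison tests. With DHT alone 0 of 10 members passed with limma, as did 0% of all genes. At an unadjusted p below 0.05 there were 5, of which S100P, S100A2, S100A4 and S100A13 were higher in CDT + DHT and S100A14 lower, against 6.86% of all genes. The same 5 had arrays that did not overlap, against 13.8%. The median difference of the members was 0.78 with DHT alone, where that of all genes was -0.10.

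Against CDT, 1 member passed in each of early S, late S and G2/M, S100P each time, and 0 in early G1 (0.00543% of all genes called) and late G1 (0.103%). Members with an unadjusted p below 0.05 numbered 2 for early G1 (5.11% of all genes), 3 for late G1 (9.06%), 4 for early S (5.57%), 2 for late S (5.94%) and 3 for G2/M (7.05%). Members whose arrays did not overlap numbered 1 for early G1 (10.3%), 4 for late G1 (15.6%), 8 for early S (22%), 3 for late S (9.19%) and 4 for G2/M (14.2%). In early S, with 2 arrays, the 8 were all members but S100A6 and S100A8. The members' median differences from CDT were 0.92 for early S, 0.36 for late S and 0.46 for G2/M, beside 0.07, -0.10 and -0.05 for all genes.

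Against CDT + DHT, S100A10 in late G1 was the 1 call, and 0 members passed in early G1 (0% of all genes called), early S (0.00543%), late S (0.0706%) and G2/M (0.44%). Unadjusted, 1 member was below 0.05 for early G1 (8.07% of all genes), 4 for late G1 (14%), 2 for early S (7.62%), 3 for late S (10.2%) and 3 for G2/M (15.1%). Members whose arrays did not overlap numbered 0 for early G1 (15.9%), 5 for late G1 (24.8%), 5 for early S (28.5%), 3 for late S (15.1%) and 4 for G2/M (26.9%). The late G1 median of the members was -1.01, beside -0.07 for all genes.

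Against the other arrests, S100A2 in late G1 was the 1 call, and 0 members passed in early G1 (0%), early S (0%), late S (0.0271%) and G2/M (0.0271%). Unadjusted, 2 members were below 0.05 for early G1 (2.47% of all genes), 5 for late G1 (10.5%), 4 for early S (3.88%), 3 for late S (6.92%) and 1 for G2/M (5%). In late G1 8 of 10 members lay below 0, with a median of -0.93 beside -0.09 for all genes. Between single arrests, S100A2 in late G1 against G2/M was the 1 call among the members, in a comparison that called 0.483% of all genes. The comparisons above share arrays, so their counts are not independent of each other.

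Of the further S100 genes, 10 were measured and none gave a call. S100A1, S100A3, S100A5, S100A7, S100A7A, S100A12, S100A16, S100B, S100G and S100Z lay between the 0.456th and the 29.2nd percentile of mean signal, and 0 of 10 passed in any of the 16 comparisons with limma. Among them, S100A1 (-1.73 ± 0.73) and S100A12 (-1.86 ± 0.77) reached an unadjusted p below 0.05 with DHT alone, and S100A5 did so against CDT + DHT in early G1, early S and late S (2.14 ± 0.68 in early S, adjusted p = 0.474).

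Of 18 listed partners and receptors of S100 proteins, 16 were measured and 2 rose, both in G2/M against CDT + DHT, where 0.44% of genes were called. AHNAK, a giant scaffold protein that binds the S100A10 and annexin A2 complex, rose by 3.66 ± 0.80 (adjusted p = 0.0472). MDM2, a ubiquitin ligase, rose by 3.87 ± 0.83 (0.0472). Either call was lost in 15 of the 20 cases of leaving out 1 array, with an adjusted p of up to 0.194 for AHNAK and 0.201 for MDM2. MDM2 averaged 6.68 in G2/M and 2.81 in CDT + DHT on the log2 scale, but 4.43 in CDT, over which its G2/M difference was 2.24 ± 0.83 (adjusted p = 0.561). AHNAK averaged 5.96 in G2/M, against 2.30 in CDT + DHT and 4.08 in CDT. The S phase arrests were high too: MDM2 averaged 6.42 in late S and 6.04 in early S. AHNAK averaged 5.64 in early S but 3.93 in late S. No partner passed against CDT + DHT in those groups, yet the calls do not show that either rise was particular to G2/M. ANXA11, an annexin that binds S100A6, differed by -2.38 ± 0.61 in late G1 against CDT + DHT (adjusted p = 0.0794). S100PBP, which encodes a binding protein of S100P, differed by -2.50 ± 0.67 in late G1 against the other arrests (0.1003). ANXA2 and ANXA1, the annexins of S100A10 and S100A11, were dim, with median intensities of 1.94 and 1.72, and AGER had an F test adjusted p of 0.828 over the 7 groups.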

How the data were processed

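Per the submitters' processing notes, the authors made the deposited values with Affymetrix Expression Console 1.1. They are linear probe set intensities, which was settled from the values (33297 features, 0 at or below 0). How probes were summarised and normalized is not given in the sources used here, nor is the build. RNA was extracted with Trizol, amplified with a NuGEN Ovation kit and labelled with biotin, per the labels' protocols. Separate cultures are not stated for the replicates. The p-values thus cover the spread among arrays, which may be technical, and precision is limited by how few arrays there are.

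The platform annotation named 19460 features by 1 gene symbol. Features with several symbols (1754) or not listed (12083) were left out, so EZR and other genes were not analysed here. Of the named ones, 19429 were updated through RefSeq. The brightest cluster per gene gave 18417 genes. Log2(intensity + 1) was fitted in R 4.3.3 using lmFit and eBayes from limma 3.58.1 (1 coefficient per group, 20 arrays, two-sided, Benjamini-Hochberg over all genes, threshold 0.05), for 16 comparisons, 21 pairs of groups and F tests. The fit was tested on simulated data. No 2 arrays were identical. Arrays with the same replicate number deviated together (r over 0.1) in 17 of 57 cases, so the numbers were not taken as pairs. That count cannot settle whether they are.

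The members and all lists were chosen with earlier results of these data known. Named were the 10 members, the 5 genes most correlated with S100P, other S100 genes and partners that passed or differed most, and KLK2. Alternatives were quantile normalization, centring, a pseudocount of 16, the mean of clusters, the brighter genes alone, eBayes with trend and robust, arrayWeights, a replicate block, only the compared groups, a residual score, leaving out the 4 arrays farthest out and leaving out each array. Upstream sequences are from RefSeq (GRCh38.p14), with all 10 members matched by symbol. A further motif that was searched is not reported here.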

Additional observations from a re-analysis of the deposited data

Results flagged for a closer look

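S100A2 differed between 2 arrests in a test of the difference itself. In late G1 against G2/M it was lower, by -2.65 ± 0.56 (limma, adjusted p = 0.0360), with late G1 arrays that all lay below the G2/M arrays. Its effects against CDT were -0.59 ± 0.56 in late G1 and 2.06 ± 0.56 in G2/M, and neither passed. Of the 10 members in 10 pairs of arrests, it is the one difference that passed. The adjusted p ran from 0.00694 to 0.0963 over the other settings, and the call was lost without late G1 replicate 1 (0.112), 2 (0.0555) or 3 (0.153), without G2/M replicate 1 (0.106), 2 (0.150) or 3 (0.102), and without CDT + DHT replicate 1 (0.0559) or CDT replicate 2 (0.0509).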

How the results depend on the processing

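Of 50 results on members with an unadjusted p below 0.05, 0 turned direction under the 11 other settings. The same held without any of the 20 arrays in turn. These results were picked by p on the same arrays, so few reversals could occur. The brighter genes alone, the mean of clusters, trend and robust, the residual score and only the compared groups cannot change a member's difference. The calls were not stable. Without single arrays, the S100P difference from CDT ran from 4.05 to 5.81 in early S (past the threshold in 16 of 20 cases), from 3.94 to 5.70 in late S (18 of 20) and from 3.52 to 5.27 in G2/M (15 of 20). S100A10 in late G1 against CDT + DHT ran from -4.13 to -2.83 (8 of 20), S100A2 in late G1 against the other arrests from -2.16 to -1.71 (3 of 20) and against G2/M from -2.88 to -2.40 (12 of 20). The calls, counted as pairs of a member and a comparison, numbered 0 to 3 against CDT, 0 to 1 against CDT + DHT and 0 to 1 against the other arrests, where all arrays gave 3, 1 and 1.

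With a pseudocount of 16 there were 5 such calls against CDT + DHT and 3 against the other arrests, and S100A2 in late G1 against these was -0.72 (adjusted p = 0.0767). With the brighter genes alone there were 2 calls against CDT + DHT, and S100A4, S100A6, S100A8, S100A9 and S100A14 had no value. With the mean of clusters, which leaves the members' values as they are and changes other genes, there were 0 calls against the other arrests (S100A2 -1.93, 0.0510). With trend and robust there were 3 calls against CDT + DHT and 0 against the other arrests (S100A2 -1.93, 0.0612). With arrayWeights the calls were 5 against CDT, 9 against CDT + DHT and 5 against the other arrests, and with the residual score as a covariate 4 against CDT + DHT. Calls over all genes rose as well. With arrayWeights they went from 13 to 1776 in late S, 81 to 1669 in G2/M and 95 to 1079 in late G1 against CDT + DHT. Against the other arrests, those in late S went from 5 to 870. With the residual score, calls against CDT + DHT went from 1 to 442 in early S and from 0 to 370 in early G1. The higher member counts are thus not particular to the members. With the replicate block there were 0 calls against the other arrests, although whether the numbers pair the arrays is not known. S100P in early S against CDT was then 5.09 (0.0513). S100A2 in late G1 was -1.93 against the other arrests (0.0788) and -2.65 against G2/M (0.0563). With only the compared groups, which leaves fewer arrays to estimate the spread, there were 0 calls against CDT and 0 against the other arrests: S100P was 5.04 (0.464), 4.93 (0.455) and 4.50 (0.140) in early S, late S and G2/M, S100A10 -3.54 (0.129), and S100A2 -1.93 (0.115) and -2.65 against G2/M (0.0963). Without the 4 arrays farthest out S100P differed from CDT by 5.25 in early S and 4.72 in G2/M, and neither call held. Late S then held replicate 3 alone, the array with the highest S100P value. Its difference of 5.88 rests on that array, so the late S call is not counted as kept. Where no reason is given, the cause was not tested. The F tests were not run on the compared groups alone.

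The number of genes called over the whole array moved by more than 1.5 times in every comparison under some setting. Against CDT it was 1 in early G1 (0 to 13), 19 in late G1 (0 to 112), 6 in early S (0 to 24), 18 in late S (0 to 205) and 20 in G2/M (2 to 130). Against CDT + DHT it was 0 in early G1 (0 to 370), 95 in late G1 (0 to 1079), 1 in early S (0 to 442), 13 in late S (0 to 1776) and 81 in G2/M (2 to 1669). Against the other arrests it was 0 in early G1 (0 to 9), 130 in late G1 (81 to 377), 0 in early S (0 to 3), 5 in late S (0 to 870) and 5 in G2/M (3 to 29), and with DHT alone 0 (0 to 35). Dim signal limits S100A4, S100A6, S100A8, S100A9 and S100A14.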

Other observations

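S100A8 and S100A14 shared their high arrays. CDT replicate 1 held the highest value of both, 23.3 for S100A8 and 24.8 for S100A14, and late S replicate 1 the second highest of both, 8.05 and 19.8. Over the 20 arrays r between them was 0.544, and 0.771 with group means taken off, the highest within-group value of the 45 pairs of members. Both arrays are among the 4 farthest out on the main axis of within-group variance. The deviations of both genes from their group means ran against that axis, with r of -0.467 for S100A8 and -0.512 for S100A14 over 20 arrays, and its part in their correlation was not tested.

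S100A8 and S100A9, whose proteins form 1 complex, did not rise together over the 20 arrays (r = -0.190, and -0.143 with group means taken off). S100A9 was 0.681 on CDT replicate 1, where S100A8 was 23.3. Some arrays were high for both, such as late G1 replicate 1 (S100A8 8.03, S100A9 8.62) and CDT + DHT replicate 2 (7.58 and 11.2). S100P and S100A13 deviated together within groups (r = 0.769), more than over all arrays (0.472).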
